A study of Triticum aestivum with 18 samples.

Results

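The genes described here are the 100 wheat genes whose transcript isoform composition differed most, in the same direction on Day 0, Day 7 and Day 21, between the spring wheat genotypes Nanda and Sadash. They were chosen by their values in these libraries. High-confidence genes with at least 2 transcript models and a mean gene level of at least 5 TPM (transcript abundance scaled for effective length and library size) in all 6 groups were eligible, apart from those lying from TraesCS1B02G000800 to TraesCS1B02G150500 on Chr 1B, and 5597 of 107892 high-confidence genes met these conditions. The share of a transcript is its mean TPM divided by the mean TPM of its gene in a group. A transcript's score is the smallest difference between the Nanda and the Sadash share over the 3 stages, in percentage points, and is 0 where the sign changes between stages. A gene takes the highest score of its transcripts, and the transcript that gives it is called leading here. Every Nanda against Sadash value of these genes is therefore a description and carries no test.

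The 6 groups held 3 biological replicates each, 18 libraries of total RNA in all. Nanda, a genotype that the study describes as highly embryogenic, and Sadash, described as less responsive, were sampled at 3 stages of microspore culture. Day 0 samples were microspores, Day 7 samples contained proembryos, and by Day 21 embryo-like structures (ELSs) had formed. All groups came from cold-pretreated spikes and RNA was extracted from pooled microspores, so a library averages over many cells. Each kind of response was represented by a single genotype, so a difference between Nanda and Sadash cannot be told apart from any other difference between these cultivars.

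A plant gene can give rise to several mature mRNAs, because introns can be kept or removed, exons can be skipped, alternative splice sites can be used, and transcription can start or end at different positions. The isoforms can encode different proteins, or carry a premature stop codon that sends the mRNA to nonsense-mediated decay. Bread wheat is a hexaploid with A, B and D subgenomes, so most genes have homoeologs, the near-identical copies on the other subgenomes. Reads that fit several isoforms or homoeologs were divided among them by the quantification program, and a share is thus an estimate that can fall to exactly 0 or 100% in a library. Both genotypes were quantified on the transcript models of the same reference, and whether sequence differences of Nanda or Sadash from that reference move reads between models was not tested. A share below is therefore the share assigned to a model, and a different share need not be a different splice form. Of the 100 genes, none matched the reference gene table at hand, and 4 had a gene ontology (GO) term of their own in the study's supplementary tables. The remaining genes are given by identifier only.

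Between 6675332 and 27463367 counts fell on high-confidence genes per library. The GAMYB-type gene TraesCS7B02G278400, of the pollen program, was at 12.9 to 35.8 TPM in the 6 Day 0 libraries and at 0 to 0.27 TPM in the 6 Day 21 libraries, whereas the BABY BOOM-type gene TraesCS3D02G389100, of the embryo program, was at 0 to 0.04 TPM on Day 0 and at 13.9 to 46.1 TPM later. Over the 15313 transcripts of all eligible genes, the libraries did not order by genotype or by stage alone. The first principal component of the shares (42.8% of the variance) placed Nanda Day 21 (1580 to 1655 points) and Sadash Day 0 (928 to 1037 points) at the high end and the other 12 libraries between -1401 and -125 points. The mean absolute share difference between a Nanda Day 21 and a Nanda Day 7 library had a median of 13.9 points, against 6.9 points between a Nanda Day 21 and a Sadash Day 0 library. The TPM-weighted mean effective transcript length, relative to that of 3689 transcripts found in all libraries, was also highest in Nanda Day 21 (0.751 to 0.774) and Sadash Day 0 (0.706 to 0.716), and 0.631 to 0.696 elsewhere. The second component (14.9%) set Sadash Day 7 replicate 3 apart, at 2427 points against -259 to -56 points in the other 17 libraries, and its shares lay 11.1 to 14.6 points from those of every other library. The part of these differences between libraries in the results below was not tested.

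**Figure D1:**
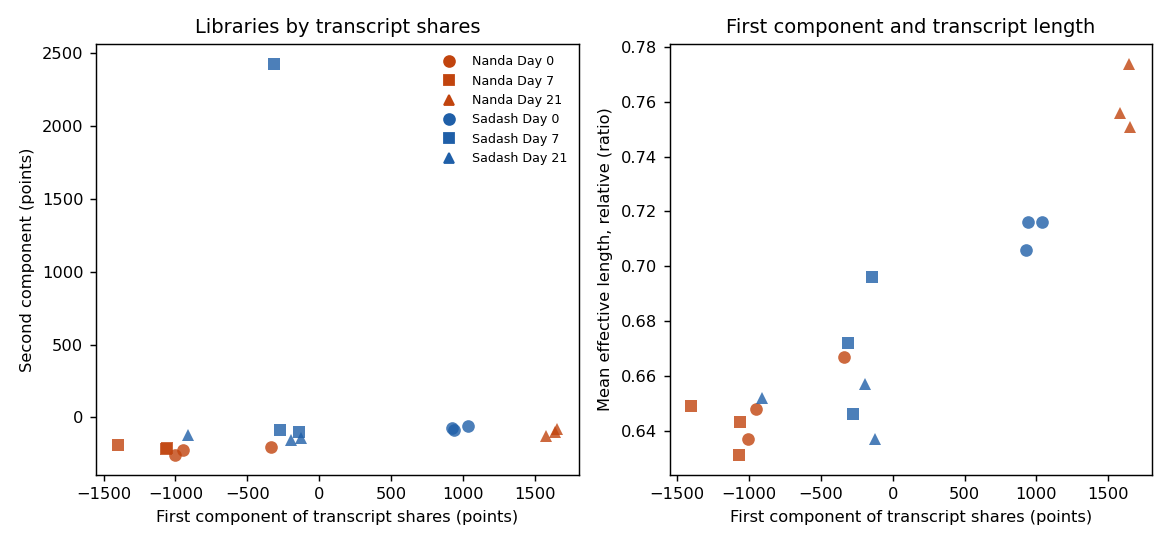
Position of the 18 libraries on the first and second principal component of transcript shares over all eligible genes (left, both axes in percentage points) and the relative TPM-weighted mean effective transcript length against the first component (right). Each point is a library, with genotype by colour and stage by shape. Nanda Day 21 and Sadash Day 0 lie at 928 points or more on the first component, and Sadash Day 7 replicate 3 lies alone at 2427 points on the second.

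Scores of the 100 genes had a median of 11.5 points and ran from 95.8 down to 6.6 points. Among them, 5 genes reached 50 points, 13 reached 20 points and 56 reached 10 points, while 82.5% of all eligible genes had a score of 0. The leading transcript had the higher share in Nanda in 41 genes and in Sadash in 59. In the 30 genes with 2 transcripts, the shares mirror each other and either transcript gives the score. Their direction is therefore arbitrary, and nothing is read from the split. The replicate SD of the leading share, averaged over the 6 groups, had a median of 9.5 points. It was larger than the score in 43 genes, and the score exceeded 2 times this SD in 23 genes. Sadash Day 7 had the widest replicates, with a median SD of 15.1 points against 5.6 to 9.1 points in the other groups.

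In 18 of the 100 genes, a transcript had shares in the 9 Nanda libraries that did not overlap with those in the 9 Sadash libraries. Over all eligible genes this held for 20, or 0.357%, and since the choice of the 100 genes used the same contrast, nothing is read from the count. Of the 18 genes, 12 ranked from 1 to 20, 5 from 21 to 40 and 1 from 41 to 60. By definition, the 18 genes also separate Nanda Day 21 from Sadash Day 0, the groups that lay together on the first component. Nothing is read from this, and the part of the component in these genes was not tested. The other 82 genes, all of those below rank 60 included, had overlapping libraries for each transcript.

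**Figure D2:**
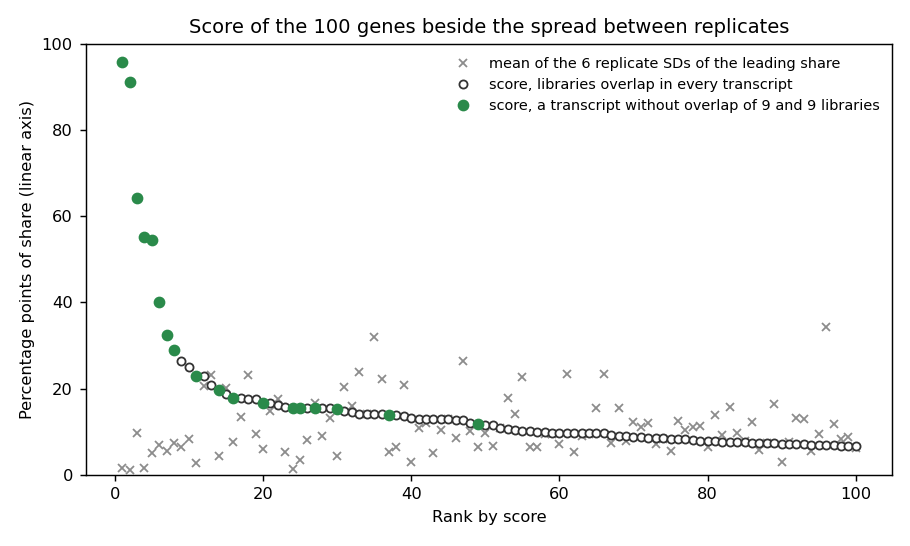
Score in percentage points (circles) and mean replicate SD of the leading share (crosses) against rank for the 100 genes, on linear axes. Filled circles mark the 18 genes with a transcript whose 9 Nanda and 9 Sadash libraries do not overlap. Beyond the first 20 ranks, scores lie under 17 points and many crosses lie above the circles.

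The highest score belonged to TraesCS6B02G180700, in which nearly all TPM was assigned to different transcripts in the 2 genotypes. In Nanda, TraesCS6B02G180700.6 held 100, 100 and 98.9% of the gene's TPM on Day 0, 88.9, 99.4 and 92.3% on Day 7, and 95.9, 98.3 and 100% on Day 21. In Sadash, TraesCS6B02G180700.5 held 97.6, 98.5 and 100% on Day 0 and 100% in all 6 later libraries. No Nanda library exceeded 11.1% for that transcript, so the groups lay far apart at each stage. The gene total was similar on Day 0 (25.8 ± 0.89 TPM in Nanda and 25.2 ± 0.74 TPM in Sadash, SD, n = 3), and the effective length of the Nanda transcript was 0.977 times that of the Sadash transcript.

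TraesCS1A02G445700, with 407 ± 22.3 TPM in Nanda and 309 ± 11.5 TPM in Sadash on Day 0 (SD, n = 3), had 3 transcripts in use. TraesCS1A02G445700.3 held 96.8, 98.5 and 97.5% in Nanda on Day 0, 95.7, 95.7 and 97.7% on Day 7 and 92.4, 94.9 and 93.8% on Day 21. In Sadash it held 0 to 3.9% over the 9 libraries, and the gene's TPM fell instead on TraesCS1A02G445700.1 (55.8 to 84.3%) and TraesCS1A02G445700.2 (13.5 to 44.2%). The genotypes did not overlap in any of the 3 transcripts.

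TraesCS1B02G411700 combined a different composition with a different total. TraesCS1B02G411700.3 had 575.4 to 1606.4 counts in the 9 Nanda libraries and none in the 9 Sadash libraries, where 3008 counts fell on the gene, which allows a share of up to 0.0997% (3 counts in all, for counting error only). Its Nanda shares were 65, 51.1 and 60.1% on Day 0, 53.7, 53.4 and 58.5% on Day 7 and 100% in the 3 Day 21 libraries. TraesCS1B02G411700.2 had the reverse pattern, with 15.1 to 55.5% in Sadash and at most 0.7% in Nanda. The third transcript, TraesCS1B02G411700.1, was in use in both genotypes on Day 0 and Day 7 and was at 0 in all 3 Nanda Day 21 libraries. The gene total was 35.9 ± 1.1, 47 ± 4.94 and 51 ± 1.98 TPM in Nanda and 8.33 ± 0.293, 21.4 ± 2.21 and 10.3 ± 2.05 TPM in Sadash on Day 0, Day 7 and Day 21 (SD, n = 3). It alone of the 100 genes had a total at least 2-fold higher in Nanda at all stages, against 0.0715% of the eligible genes. None was 2-fold higher in Sadash throughout, against 0.214% of the eligible genes. In bulk RNA, fewer cells using a transcript and less of it per cell cannot be told apart.

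TraesCS3B02G597700 and TraesCS3A02G421700 have 2 transcripts each, so that the shares mirror each other. TraesCS3B02G597700.1 held 50, 50 and 100% on Day 0, 100, 50 and 100% on Day 7 and 100% in each Day 21 library of Nanda, and 0 to 1.5% in Sadash. The 3 values of 50% came from exactly equal expected counts for both transcripts, and the gene had only 47 to 232 counts per library. TraesCS3A02G421700.1 was steadier, at 65.5 to 73.3% in the 9 Nanda libraries and 0 to 22.3% in the 9 Sadash libraries. Equal expected counts of 2 transcripts occurred in 3 of the 100 genes and in 18, or 0.322%, of the eligible genes.

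**Figure D3:**
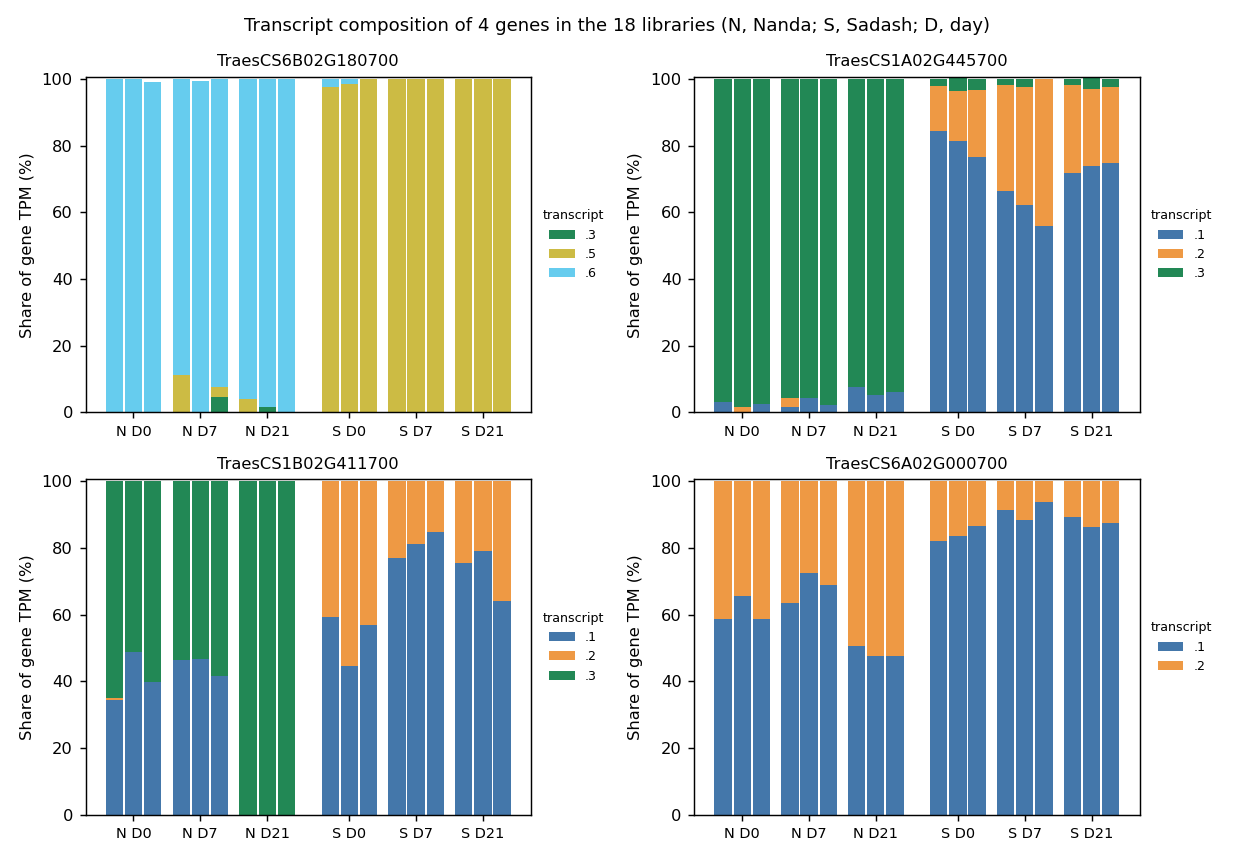
Share of gene TPM (%) held by each transcript in the 18 libraries for 4 genes, with a bar per library and the bars grouped by genotype and stage. Transcripts below 2% in every library are not drawn. In TraesCS6B02G180700 and TraesCS1A02G445700 different transcripts hold most of the TPM in the 2 genotypes, TraesCS1B02G411700.3 has a share only in the Nanda libraries, and TraesCS6A02G000700 has both transcripts in unequal proportions.

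In other high-ranking genes the genotypes mixed the same transcripts in different proportions. TraesCS2B02G248600.5 held 10.4 to 38.2% in Nanda (median 24.3%) and 55.7 to 75.9% in Sadash (median 66.1%). The remaining TPM of Nanda fell mainly on TraesCS2B02G248600.3, TraesCS2B02G248600.6 and TraesCS2B02G248600.7, with TraesCS2B02G248600.6 at 35.1 to 45.4% on Day 21 and at 0 in the 6 earlier Nanda libraries. TraesCS1A02G058600.3 held 78.9 to 100% in Nanda and 53.7 to 74.5% in Sadash, where TraesCS1A02G058600.2 took 18.8 to 38.9% against at most 2.1% in Nanda. TraesCS1A02G005600.2 held 17.1 to 64.1% in Sadash and 0 to 4.8% in Nanda.

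Further down, TraesCS1B02G480400.1 held 31.3 to 53.5% in Sadash and 12.6 to 30.8% in Nanda, so that the nearest libraries were almost level. TraesCS7A02G294000.2 held 92 to 100% in Sadash but ranged from 0.6 to 88.9% in Nanda, where it averaged 28 ± 23.9% on Day 0, 66.3 ± 4.7% on Day 7 and 79.1 ± 8.6% on Day 21 (SD, n = 3). TraesCS3B02G369400.1 held 23.8 to 49.8% in Nanda and 0 to 20.3% in Sadash. These genes separated the genotypes without sharing a direction, since the leading transcript was the higher one in Sadash in the first and second gene and in Nanda in the third.

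Of the first 20 genes, 8 had overlapping libraries, and in TraesCS7A02G024500, TraesCS3B02G072500 and TraesCS6A02G065400 a single Sadash library set the overlap. TraesCS7A02G024500.3 held 60.6 to 81% in Nanda, and 8 of the 9 Sadash libraries lay at 21 to 46.1%, with Sadash Day 21 replicate 2, the library with the fewest counts, at 62.1%. TraesCS3B02G072500.3 was at 0 in all 9 Nanda libraries and at 25.2 to 59.1% in 8 Sadash libraries, but at 0 in Sadash Day 7 replicate 3. TraesCS6A02G407200.1 was likewise at 0 in Nanda, and at 0 in 2 Sadash Day 0 libraries. TraesCS3B02G451200, TraesCS1A02G143900, TraesCS4A02G168400 and TraesCS7B02G003100 had replicates of a group that differed by more than 50 points. Without Sadash Day 7 replicate 3, the rule found 85 of the 100 genes again and the number of genes without overlap was 24 instead of 18. Over the same genes, that number can only stay or rise when a library is removed. No share over the eligible genes is given for it, and nothing is read from the rise. Leaving out this library was an alternative chosen after the data had been seen.

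**Figure D4:**
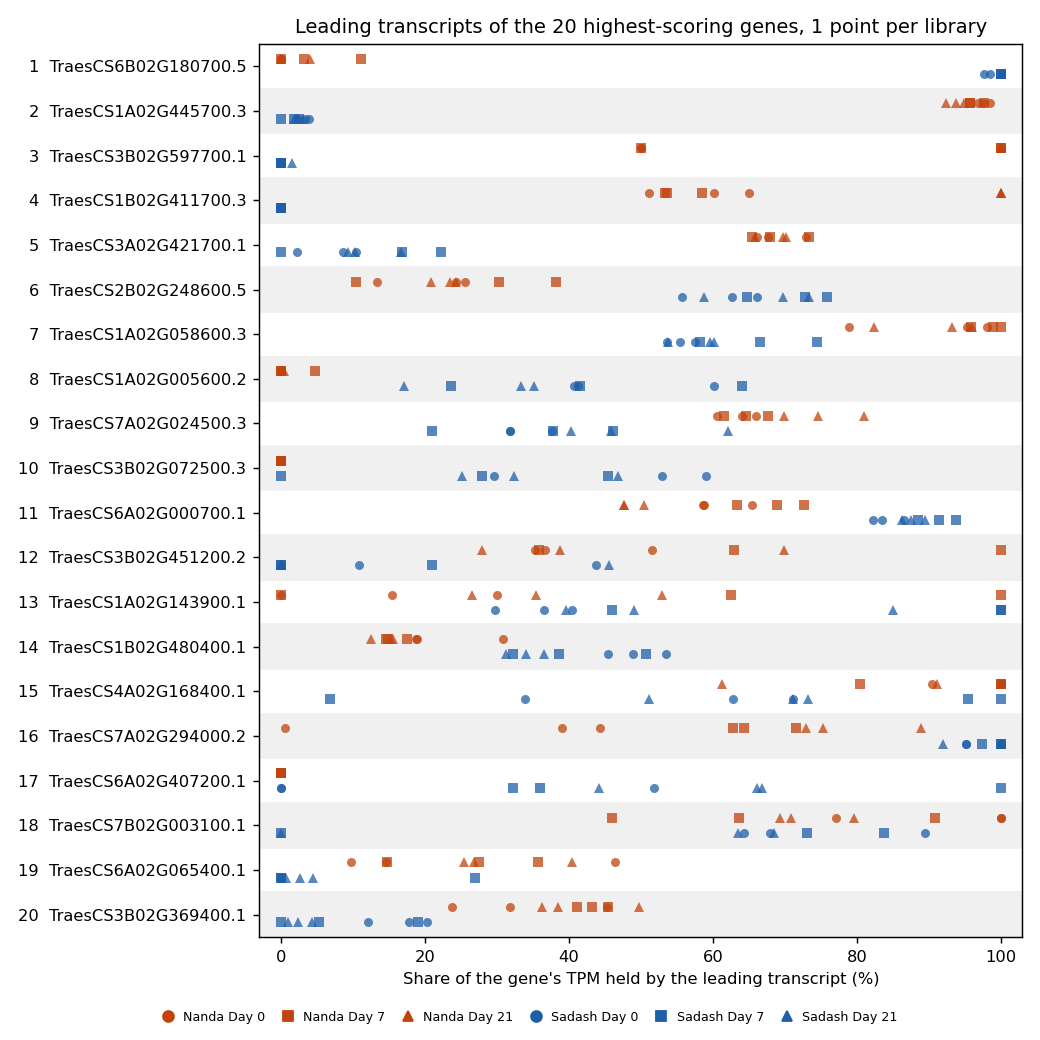
Share of gene TPM (%) of the leading transcript in each library for the 20 highest-scoring genes, in rank order, with Nanda above and Sadash below on each row and the stage by shape. The 9 libraries of each genotype are clearly apart for ranks 1 to 6, closer but separate for ranks 7, 8, 11, 14, 16 and 20, and overlapping in the other rows.

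Of the 4 genes with a GO term of their own, TraesCS6A02G065400 was the only one that the study lists under RNA splicing. It is also listed under mRNA splicing via the spliceosome, the complex that removes introns. Genes without a term are not thereby known to lie outside splicing. TraesCS6A02G065400.1 held 14.6, 9.7 and 46.4% on Day 0, 35.7, 14.8 and 27.6% on Day 7 and 26.9, 40.5 and 25.4% on Day 21 in Nanda. In Sadash it was at 0 in 5 of the 6 libraries of Day 0 and Day 7, at 27% in Day 7 replicate 3, and at 0.7, 2.7 and 4.5% on Day 21. The libraries overlapped only through that Day 7 replicate, and the transcript's effective length was 0.675 times that of TraesCS6A02G065400.2. The total of the gene rose from 32.6 ± 1.11 to 63.4 ± 7.55 TPM between Day 7 and Day 21 in Sadash (SD, n = 3; log2 fold change 1.11 ± 0.14, SE, edgeR quasi-likelihood test, adjusted p = 2.2e-06), whereas in Nanda the log2 fold change was 0.48 ± 0.14 (adjusted p = 0.0072), under the fold limit. The difference between these changes was not tested.

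The study's supplementary tables give 68 complete identifiers under splicing terms and under nonsense-mediated decay, of which TraesCS6A02G065400 was the only one among the 100 genes and 4 were eligible. The lists are shortened in the form used here, so other genes under these terms can be missing. The study drew these terms from comparisons of the same samples, so their counts are not independent evidence of a direction. At the gene level, 1 of the 68 was higher and 17 were lower on Day 7 than on Day 0 in Nanda (median log2 fold change -0.25), and 6 were higher and 40 lower on Day 21 than on Day 7 (median -1.35). In Sadash, 6 were higher and 5 lower in the first transition (median -0.08), and 3 were higher and 28 lower in the second (median -0.57). Over all genes tested, the medians were 0, -0.05, 0 and 0 in the same order, and 18.5%, 15.8%, 16% and 16.8% were higher and 15.2%, 18.3%, 12% and 18.4% lower at the later stage.

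The other annotated genes lay lower in the ranking. TraesCS1D02G072300, listed under ribosome biogenesis, used TraesCS1D02G072300.4 for 92 to 100% of its TPM in Nanda, while in Sadash TraesCS1D02G072300.1 held 36.2, 29.7 and 37.8% on Day 0 and 1.8 to 21.8% later, against at most 7.2% in Nanda. The Sadash value of 1.8% was again that of Day 7 replicate 3, without which the genotypes did not overlap. TraesCS5B02G448900, whose A and D homoeologs are listed under microtubule cytoskeleton organization, and TraesCS1B02G351600, listed under carbohydrate biosynthetic process, had overlapping libraries. So did TraesCS5B02G403200, listed under regulation of protein modification process.

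Chromosome and position, which the score did not use directly, were set beside those of the eligible genes. Transcript length was read for the 100 genes only. The excluded stretch of Chr 1B is missing from the 100 genes and from the eligible genes alike, and shares of TPM depend on effective length. The A, B and D subgenomes held 30, 38 and 32 of the 100 genes, against 33%, 32.4% and 34% of the eligible genes. Chr 1D held 10 of them, or 3.91% of its eligible genes, Chr 1B 7 (3.78%) and Chr 3B 9 (3.12%), against 1.79% over all chromosomes. By the order of identifiers, 16 of the 100 genes lay in the first or last 5% of their chromosome, against 4.88% of the eligible genes, among them TraesCS6A02G000700 near the start of Chr 6A, TraesCS1A02G445700 near the end of Chr 1A and TraesCS1B02G480400 near the end of Chr 1B. In 59 genes the effective lengths of the transcript most used by Nanda relative to Sadash and of its counterpart were within 10% of each other, and over all 100 genes their ratio ran from 0.361 to 3.38. The number of models and the level were part of the choice, since a gene took the highest score of its transcripts and had to pass the 5 TPM floor. As a description, 70 of the 100 genes had at least 3 models against 37.7% of the eligible genes, and the median level was 15.8 TPM against 18.3 TPM.

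Gene totals were set beside the shares, again as a description. The gene total differed by less than 1.5-fold at all 3 stages in 23 of the 100 genes and in 46.9% of the eligible genes, and in only 1 of the 18 genes without overlap. TraesCS7B02G354000, for example, had 54.9 TPM in Nanda and 8.7 TPM in Sadash on Day 0, with TraesCS7B02G354000.1 at 12.3 to 23.3% in Nanda and 0 to 2% in Sadash. TraesCS2D02G578100 had 14.4 and 35.2 TPM on Day 0, with TraesCS2D02G578100.3 at 98.4 to 100% in Nanda and 60.2 to 90.3% in Sadash. Both genes were named after their values had been seen, as were TraesCS6B02G208900, TraesCS6A02G309600 and TraesCS3B02G034500. TraesCS6B02G208900.5 had no counts in the 9 Nanda libraries, where 20948 counts fell on the gene (a share of up to 0.0143%), and 138.8 to 1101.7 counts in each Sadash library. TraesCS1A02G324800.2 held 8.9 to 38.6% in Sadash and 0 to 5.2% in Nanda, and TraesCS6A02G309600.2 held 57.1 to 84.6% in Sadash and 30.7 to 55.4% in Nanda. TraesCS3B02G034500 separated the genotypes by TraesCS3B02G034500.1, which is not its leading transcript, at 2 to 21.1% in Sadash and at most 0.4% in Nanda.

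Only the first part of the study's triads was read, so homoeologs of other genes are not covered. For 22 of the 100 genes this part gives the other copies, 43 different genes, of which 32 were eligible. A score above 0 was found in 12 of these 32, against 17.5% of all eligible genes, and 2 of the 32 were themselves among the 100 genes, against 1.79%. These 2 are a single pair, each counted as the homoeolog of the other, and the choice itself put them among the 12. Nothing is read from either count. In the part read, the homoeologs TraesCS6A02G000700 and TraesCS6B02G005400 were the only pair with both copies among the 100 genes. TraesCS6A02G000700.1 held 58.8, 65.5 and 58.6% in Nanda on Day 0, 63.4, 72.6 and 68.9% on Day 7 and 50.5, 47.6 and 47.6% on Day 21, against 82.2 to 93.8% in Sadash. TraesCS6B02G005400.2 held 9.6 to 77.9% in Nanda and 59.6 to 78% in Sadash, with overlap on Day 0 and Day 7. The D copy, TraesCS6D02G004800, had a score of 0.2 points. TraesCS2B02G526200 and TraesCS2B02G526300 were the only 2 of the 100 genes with consecutive identifiers, a pair named after its position had been seen.

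Whether the differences recur in libraries that did not choose the genes was examined by applying the rule to 2 replicates per group and reading the third. With replicate 1, 2 or 3 left out of the choice, 35, 42 and 33 of the 100 genes so chosen had the same sign at all 3 stages in the unused replicate, against 16.8%, 17.2% and 15% of all genes with a score above 0. The smallest difference over the stages in the unused replicate, counted as positive in the direction of the choice, had a median of -6, -0.3 and -4.6 points, against median scores of 12.8, 11.7 and 11.3 points in the libraries used. Most of the genes so chosen thus had the opposite sign, or no difference, at one stage or more of the unused replicate. In all 3 turns, 21 of the 100 genes were chosen and kept the sign, and 15 of these were among the 18 genes without overlap. TraesCS7A02G024500 and TraesCS1D02G072300 were among the other 6. A transcript without overlap has the same sign in every replicate by definition, and the 100 genes were chosen with all 3 replicates. The 21 and the 15 are therefore descriptions, and nothing is read from them.

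Near the limit of the choice, scores changed little from rank to rank. TraesCS5B02G403200 (6.7 points), TraesCS7A02G426200 (6.65 points) and TraesCS1D02G004900 (6.62 points) were the last genes inside, and TraesCS3B02G147100 (6.59 points), TraesCS4A02G317800 (6.58 points) and TraesCS3A02G202000 (6.5 points) the first outside. TraesCS3B02G147100, with its leading transcript at 93.7 to 97.5% in Nanda and 81.1 to 92.2% in Sadash, separated the genotypes, and none of the 3 genes just inside did.

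Differences between the stages of a genotype were not scored by the rule and were tested. The tests of transcript usage still draw on the shares and libraries that chose the genes. The rule asked for one sign of the genotype difference at all 3 stages, which can limit how a share moves between stages. Counts of the 100 genes called for usage are therefore not independent of the choice. The floor of 5 TPM in all 6 groups limits how far a gene total can fall or rise, so the share called among the eligible genes is given beside that of all genes. The first comparison asked whether the total of the 100 genes changed, by edgeR's quasi-likelihood test on counts summed per gene. A gene was called where it changed by 1 or more on the log2 scale, up or down, with an adjusted p below 0.01. From Day 0 to Day 7 in Nanda (ND7_D0), 13 genes rose and 3 fell, against 18.5% and 15.2% of the 62692 genes tested and 12% and 5.88% of the eligible genes. TraesCS7D02G172400 rose from 10.3 to 13.2 TPM on Day 0 to 45.9 to 59.3 TPM on Day 7 (log2 fold change 2.38 ± 0.3, SE, adjusted p = 3.1e-06). TraesCS5D02G305800 rose by a log2 fold change of 1.8 ± 0.14 (adjusted p = 8e-09) and TraesCS5B02G448900 by 1.54 ± 0.21 (adjusted p = 5.1e-06). Under log2(TPM + 1) and limma, 9 genes rose and 5 fell, and under log2(TPM + 0.1) 9 rose and 7 fell.

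From Day 7 to Day 21 in Nanda (ND21_D7), 8 genes rose and 8 fell, against 15.8% and 18.3% of all genes tested and 5.11% and 13% of the eligible genes. The 3 largest changes were falls. TraesCS7B02G089900 fell from 47.9 ± 8.82 to 10.7 ± 1.91 TPM (SD, n = 3; log2 fold change -2.56 ± 0.21, SE, edgeR adjusted p = 1.7e-08) and TraesCS5B02G403200 from 35.4 ± 2.71 to 11.1 ± 1.11 TPM (log2 fold change -2.05 ± 0.21, edgeR adjusted p = 2.6e-07). TraesCS6D02G180300, with only 1 to 34 counts per library (median 16), fell by 2.35 on the log2 scale (SE 0.6, edgeR adjusted p = 0.0027). The call was lost with limma on TPM, and also when Nanda Day 21 lost its replicate 1 or its replicate 2 (log2 fold change -2.23 in either case). With limma on log2(TPM + 1) or log2(TPM + 0.1), 15 genes rose and 4 fell. The median of the eligible genes lay 0.35 and 0.36 higher on these log2 scales than with the trimmed mean of M values (TMM), the scaling of the main test.

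In Sadash, 8 genes rose and 10 fell from Day 0 to Day 7 (SD7_D0), against 16% and 12% of all genes tested and 6.29% and 8.7% of the eligible genes. From Day 7 to Day 21 (SD21_D7) 8 rose and 10 fell, against 16.8% and 18.4% of all genes and 6.56% and 9.76% of the eligible genes. TraesCS5B02G448900 rose in both transitions, from 4.34 to 5.99 TPM on Day 0 to 14.2 to 23.5 TPM on Day 7 and 40 to 53.4 TPM on Day 21, without overlap between neighbouring stages (log2 fold change 1.87 ± 0.22 and 1.31 ± 0.2). TraesCS1A02G143900 fell by 1.61 on the log2 scale in the first transition and rose by 2.35 in the second (adjusted p = 3.8e-05 and 4e-07). TraesCS6A02G373400 rose on Day 7 (log2 fold change 1.59 ± 0.26, adjusted p = 5.9e-05). TraesCS7B02G089900 fell by 2.57 on Day 21, as it did in Nanda, and TraesCS3D02G127800 fell by 1.88 (adjusted p = 2.6e-08 and 6.9e-09). With limma, 9 genes rose and 7 fell in SD7_D0 on log2(TPM + 1), and 5 rose and 14 fell in SD21_D7 on log2(TPM + 0.1).

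The second set of tests asked whether the composition itself changed between stages, by edgeR's test of differential transcript usage. A transcript was called where its mean share moved by 10 points or more with an adjusted p below 0.01. It could be made for 99 of the 100 genes. In ND7_D0 the composition of 1 gene changed, against 0.0717% of the 11163 genes tested and 0.11% of the eligible genes. TraesCS6B02G361500.1 had 31.7, 15.5 and 0% on Day 0 and 0 in the 3 Day 7 libraries, a change of -15.7 points (adjusted p = 0.0098). The call was lost when any one Nanda library other than Nanda Day 0 replicate 3, or any one Sadash Day 0 library, was left out. The number of genes called was then 0, except without Nanda Day 7 replicate 3, where it was 1. At an unadjusted p under 0.05, 10 of the 100 genes passed the share limit. Nothing is read from this count, which was not made over the eligible genes.

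The composition of 12 genes changed from Day 7 to Day 21 in Nanda, against 7.1% of all genes tested and 13.9% of the eligible genes. TraesCS2B02G526200.5 held 68, 85.6 and 77.5% on Day 7 and was at 0 in all 3 Day 21 libraries (change -77 points, adjusted p = 9.4e-06). TraesCS1A02G324800.3 dropped from 79.2, 88.6 and 69.1% to 6.1, 15.1 and 15.9% (adjusted p = 0.0012), a call that was lost without Nanda Day 21 replicate 1. TraesCS6B02G361500.1 returned from 0 on Day 7 to 52.5, 62.6 and 69.1% (change 61.4 points, adjusted p = 7.5e-06). In each of these transcripts, the 3 libraries of a stage lay apart from those of the other.

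Of the 14 transcripts called in these 12 genes, 10 were lower and 4 higher on Day 21, and 7 of the 10 were at 0 in all Nanda Day 21 libraries. Over all genes, 60.4% of the called transcripts were lower, and 56.6% of these were at 0. In 13 of the 14, the Sadash share on Day 0 differed from that on Day 7 in the same direction as Nanda Day 21 from Nanda Day 7, and this held for 87.8% of the 877 transcripts called over all genes. The transcript with the largest gain was at least 10% longer than that with the largest loss in 7 of the 12 genes and at least 10% shorter in 2, against 57% and 16.3% of the 793 genes called. The first component and the mean effective length of the libraries moved in step with this comparison, as given above, and their part in it was not tested. Without Nanda Day 21 replicate 2, 7 genes were called, and limma on log-ratios of TPM called 30 and 37 genes with pseudocounts of 0.1 and 1. These counts were not made over the eligible genes.

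In Sadash, the composition of 2 genes changed in SD7_D0, against 0.887% of all genes tested and 1.89% of the eligible genes. In SD21_D7 edgeR called 0 genes, against 0.0627% of all genes tested and 0.11% of the eligible genes. TraesCS6B02G361500.1 went from 32, 29 and 42.1% to 0 in the 3 Day 7 libraries (change -34.3 points, adjusted p = 0.00017), as it had in Nanda. TraesCS4A02G137900.2 went from 1.2, 0 and 0% to 37.6, 23.6 and 18.6% (change 26.2 points, adjusted p = 3.5e-05). In SD21_D7, 9 genes passed the share limit at an unadjusted p under 0.05, and limma called 0 at either pseudocount. Neither count was made over the eligible genes, and nothing is read from them. Leaving out a library gave 1 called gene in SD21_D7 for Sadash Day 7 replicate 3 and 2 for Sadash Day 21 replicate 3.

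The Sadash values of the transcripts called in Nanda are given beside them as a description. Whether the genotypes changed differently was not tested, because the rule scored the Nanda against Sadash share differences at these same stages. TraesCS2B02G526200.5 changed by -77 points in Nanda and by 4.4 points in Sadash from Day 7 to Day 21, TraesCS6A02G309600.4 by -53.7 and 14.9 points, and TraesCS1B02G411700.1 by -44.8 and -8.1 points. In TraesCS6A02G309600 the Nanda share passed to TraesCS6A02G309600.1, which went from 2.4, 1.4 and 7.6% to 48.2, 45.6 and 50.4%. TraesCS4A02G137900.8, at 0 in the Day 7 libraries of Nanda, reached 31.9, 31.6 and 26.8%. The call of TraesCS1D02G091100.3 rests on a single library, since its Nanda Day 7 shares were 0, 0 and 47% and all 3 Day 21 shares were 0. TraesCS6A02G309600, TraesCS1B02G411700, TraesCS4A02G137900 and TraesCS1D02G091100 were named here after their values had been seen.

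**Figure D5:**
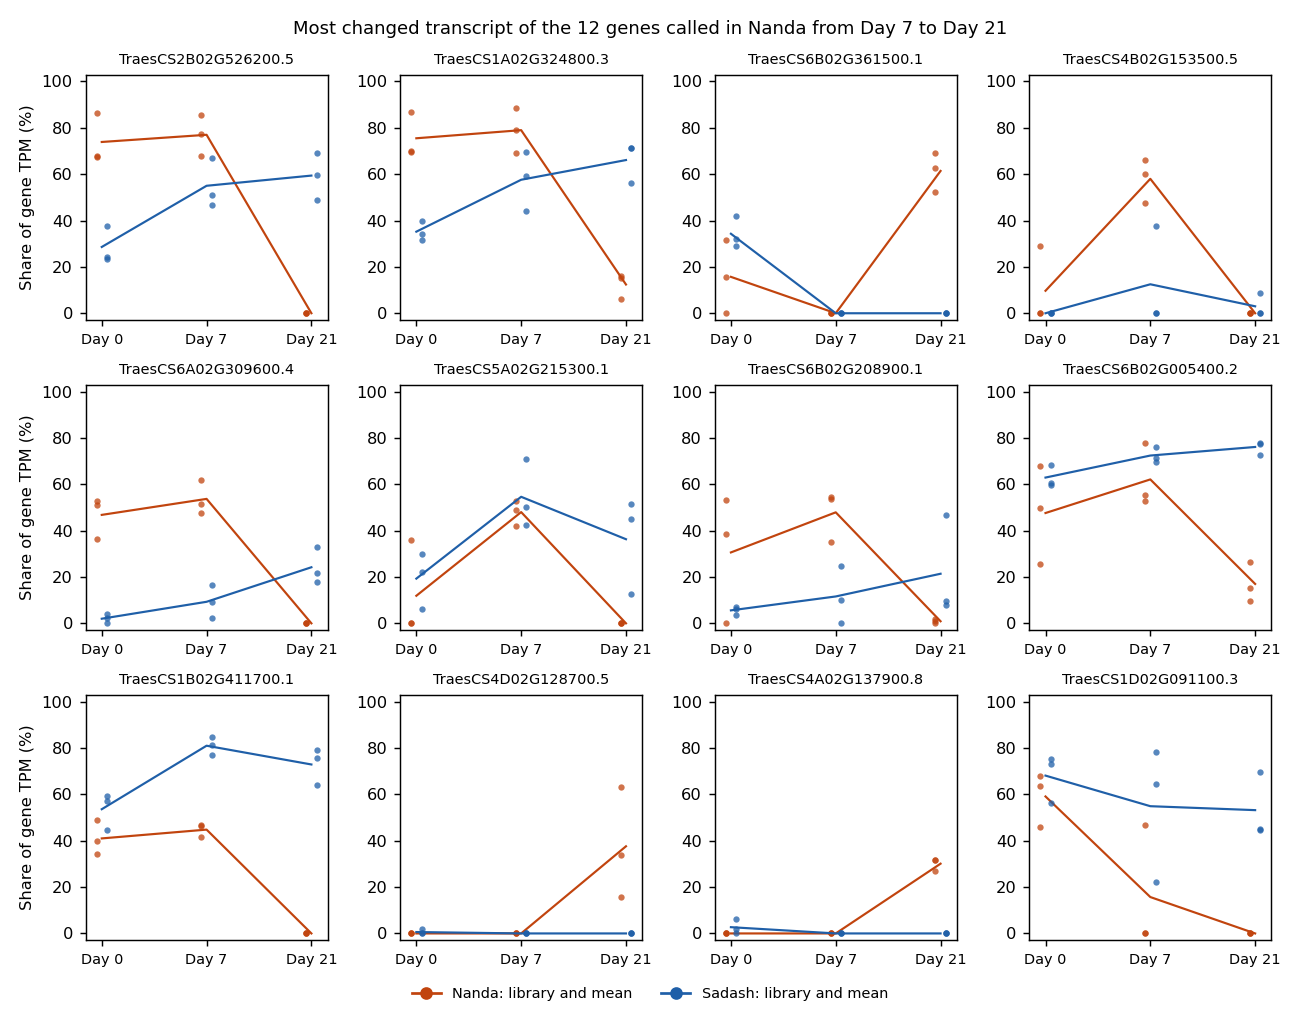
Share of gene TPM (%) against stage for the most changed transcript of each of the 12 genes called in Nanda from Day 7 to Day 21, with a point per library and lines through the means of 3 replicates, Nanda in red and Sadash in blue. The Nanda means fall to Day 21 in 9 panels and rise in those of TraesCS6B02G361500.1, TraesCS4D02G128700.5 and TraesCS4A02G137900.8, and for TraesCS1D02G091100.3 only 1 of the 3 Nanda Day 7 libraries is above 0.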

How the data were processed

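Total RNA of 18 libraries was sequenced as paired-end reads. Trimming by the authors used Trimmomatic 0.39, alignment to the IWGSC v1.1 annotation used STAR 2.7.5a, and RSEM 1.3.3 divided reads among transcripts. The authors deposited expected counts per transcript, and the authors also deposited TPM, which divides counts by effective length. Low-confidence genes (5.14% to 6.88% of counts) were left out. Members and lists were chosen with earlier results of these data known. Named genes are the 20 highest scores, those with a description, homoeologous members, the 3 largest called changes per stage comparison and the 3 genes on each side of rank 100. Counts were rounded, and features with 1 CPM in at least 1 library were fitted in edgeR 4.0.16 (TMM, quasi-likelihood, 1 level per group, diffSpliceDGE for usage, Benjamini-Hochberg over all features). The fits were checked on simulated counts, which had no error in dividing reads among transcripts and left out genes with few counts. The check therefore does not show how usage calls hold under such error or at low counts. Alternatives used RLE, other filters, DESeq2 1.42.0, limma 3.58.1, a replicate block, other share limits and each library left out. P-values rest on the spread between replicates within groups, estimated over all 18 libraries in one fit and not from the compared groups alone. R 4.3.3 and Python 3.11.15 were used. No sequences or coordinates were used here.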

Additional observations from a re-analysis of the deposited data

How the results depend on the processing

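Counts of called genes in the alternatives cover the 100 genes only, without a share over the eligible genes beside them. At the gene level the number of the 100 genes called stayed within 1.5 times of the main count in every alternative run. With each library left out in turn, it was 14 to 18 in ND7_D0, 14 to 18 in ND21_D7, 16 to 18 in SD7_D0 and 16 to 19 in SD21_D7. RLE scaling moved the median of the eligible genes by 0.12 on the log2 scale in ND21_D7 and by at most 0.06 in the other comparisons. Of the values of single genes at the gene level, 296 kept their call and 4 lost it.

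For transcript usage, the 1 gene of ND7_D0 became 0 with RLE, with the stricter filter of 1 CPM in at least 3 libraries, with limma at a pseudocount of 0.1, at a minimum change of 20 points and with the replicate block, and 0 to 1 with a library left out. The 12 genes of ND21_D7 became 30 and 37 with limma and 7 to 17 with a library left out. The 2 genes of SD7_D0 became 7 with limma at a pseudocount of 1 and 2 to 3 with a library left out, and the 0 of SD21_D7 became 0 to 2. Of the values of single transcripts, 127 kept their call and 17 lost it. Same-numbered replicates of different groups correlated at -0.19 to 0.31 (median -0.02 over 45 pairs, against 0.01 for other pairs). Of the 45 pairs, 5 lay above 0.1. Whether the numbers pair the samples of some groups cannot be told from these values. Apart from ND7_D0 above, blocking moved no count by over 1.5 times, with 11, 2 and 0 genes in ND21_D7, SD7_D0 and SD21_D7.

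The rule found 27 of the 100 genes again at a floor of 1 TPM, 36 at 10 TPM (all 36 still eligible), 74 with shares of counts, 92 with the mean of library shares, and 57 to 61 without a replicate number, or 85 without Sadash Day 7 replicate 3. Genes without overlap were 18 with shares of counts and 21 to 27 with libraries left out. Over the same genes, leaving libraries out cannot lower this number, and no share over the eligible genes is given for it. The unused replicates gave 35, 37 and 35 genes with shares of counts. The causes of these differences were not tested. Low counts limit the shares, since the lowest count of one of the 100 genes in a library was 1.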

Other observations

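Without Sadash Day 7 replicate 3, 6 further genes separated the genotypes: TraesCS3B02G072500, TraesCS6A02G065400, TraesCS7B02G089900, TraesCS1D02G072300, TraesCS6B02G218600 and TraesCS5B02G403200, which were singled out after their values had been seen. Removing a library can add genes to those without overlap but cannot take any away. TraesCS6A02G065400 is listed by the study under RNA splicing, TraesCS1D02G072300 under ribosome biogenesis and TraesCS5B02G403200 under regulation of protein modification process.

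In 11 of the 100 genes, the transcript with the highest share differed between Nanda and Sadash at each of the 3 stages. Besides ranks 1 to 6 these were TraesCS7A02G296100, TraesCS1D02G112300, TraesCS2B02G526300, TraesCS5B02G470200 and TraesCS6D02G142200, each with overlapping libraries, and they too were named after their values had been seen. The 11 were counted among the 100 genes only, so no share over the eligible genes is given.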
